A study of Mus musculus with 115 samples.

Results

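The comparison set dentate granule cells of the saline-injected hippocampus that carried EGFP (EGFP+) against those that did not (EGFP-). Both classes came from Rbp4-Cre transgenic mice that received retroAAV-EGFP in the right ventral hippocampus, and saline with AAV.cDIO-mCherry in the left hippocampus, 2 weeks before sampling. The retrograde virus is taken up by axon terminals, so EGFP marks granule cells with an axon in the opposite hippocampus, and an EGFP- cell is one in which no EGFP was seen. Cells were sampled on the left side whether or not they carried mCherry. In the other mice of the study, saline was replaced by kainic acid (KA), which activates glutamate receptors and provokes seizures. Members were the saline cells in the authors' count table of cells kept after quality control, with the class taken from the labels: 5 EGFP+ and 27 EGFP- cells, 32 of the 95 cells in that table.

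Granule cells are the excitatory output neurons of the dentate gyrus. Their axons, the mossy fibres, mostly stay in the hippocampus of the same side, and crossing axons are unusual. Granule cells are identified by transcription factors such as Prox1 and the calcium buffer Calb1, and synaptic activity switches on immediate early genes such as Arc and Fos within minutes to hours. Microglia, the resident immune cells of the brain, lie among them and express the complement C1q genes and Trem2.

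Each library holds the RNA drawn by patch pipette from 1 cell, so cells are shown singly and the EGFP+ cells are numbered 1 to 5 in title order. The labels name no mouse, although the study states 3 mice for each class. Each class therefore counts as 1 sample, and no test between the classes was made. The labels list 7 EGFP+ cells, and 2 of the 5 kept ones (cells 1 and 2) carry a label of failed quality control, as do 5 of the 27 kept EGFP- cells. Of the 20 labelled cells of the study that are not in the kept table, 18 directly follow a title labelled failed, whereas none of the 95 kept cells does. The quality labels may therefore be displaced by 1 title, and whether the class labels are displaced with them was not resolved. Only 1 of the 5 kept EGFP+ cells follows a title labelled EGFP+, so a displaced class label would change most members and every value given here. The study states 57 EGFP- cells that passed, of which those beyond the 27 were not analysed here. Total counts were 1277978 to 6094406 per EGFP+ cell and 1916928 to 11758759 per EGFP- cell, so cells 4 and 5 were shallower than every EGFP- cell. After thinning each cell to 1000000 counts, 2981 to 6033 genes had a count in the EGFP+ cells and 1191 to 8950 in the EGFP- cells. The median correlation of log2 levels across genes was 0.155 over 10 pairs of EGFP+ cells, 0.176 over 135 mixed pairs and 0.251 over 351 pairs of EGFP- cells.

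Levels are log2(CPM+1), where CPM is the count divided by the cell's total and multiplied by 1000000, and a difference is the EGFP+ mean minus the EGFP- mean. A gene was measured if the average of both class means was at least 1, which 7708 genes reached. Of these, 161 (2.09%) were at least 3 higher in EGFP+ cells, an 8-fold difference on this scale, and 396 (5.14%) were at least 3 lower. The median difference over all measured genes was -0.46, with 38.6% of them higher and 61.4% lower in EGFP+ cells. All 5 EGFP+ cells lay above the EGFP- median for 78 genes (1.01%) and below it for 417 (5.41%). No gene had all 5 EGFP+ cells above, or all below, every EGFP- cell.

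The labelled cell type was checked against its markers. All 5 EGFP+ cells held transcripts of neurons: Snap25, a synaptic fusion protein, stood at 10.24, 11.32, 11.72, 7.37 and 10.03 in cells 1 to 5, and the vesicular glutamate transporter Slc17a7 at 6.51, 8.75, 9.28, 6.62 and 8.98. The EGFP- median was 10.97 for Snap25 and 8.33 for Slc17a7. Calb1 stood at 9.64, 9.44, 9.38 and 7.72 in cells 1 to 4 and had no count in cell 5, against an EGFP- median of 9.49. Prox1 stood at 8.85 in cell 1 and 1.67 in cell 4 and had no count in cells 2, 3 and 5, whereas 23 of 27 EGFP- cells had one. Reads of Prox1 cannot be told apart from those of the overlapping Prox1os, since the libraries carry no strand. C1ql2, a secreted organiser of mossy fibre synapses, stood at 7.45, 10.72, 8.97, 1.29 and 8.74, with an EGFP- median of 9.33. So Snap25, Slc17a7 and C1ql2 were counted in all 5 cells, although C1ql2 was low in cell 4, and Prox1 was not. The mean level over the granule cell identity list was 5.94, 3.18, 5.11, 1.64 and 1.98 in cells 1 to 5. EGFP- cells ran from 0.73 to 7.36 with a median of 5.80. Over the pan-neuronal and excitatory list it was 6.43, 6.83, 7.71, 4.82 and 3.85. There EGFP- cells ran from 3.19 to 8.84 with a median of 7.66. Cells 4 and 5 were thus low on both lists.

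Microglial transcripts were the leading group among the genes higher in EGFP+ cells. Of 25 measured microglial genes, 24 were higher (all genes: 38.6%) and 17 were at least 3 higher (all genes: 2.09%), with a median difference of 3.53 beside -0.46 over all measured genes. They made up 3.36%, 3.45%, 0.691%, 0.0017% and 5.64% of the counts of cells 1 to 5. In EGFP- cells the share ran from 0% to 6.35% with a median of 0.0302%. A share of at least 0.1% was reached by 4 of 5 EGFP+ and 12 of 27 EGFP- cells, so the classes overlapped. On counts summed over the cells of a class the median was 0.78.

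Sequences just upstream of some named genes of both directions are shown here because most microglial genes were higher and most immediate early genes lower. They are the 250 bases before the RefSeq start (GRCm38.p6), 5′ to 3′ on the gene's strand. In Btg2 and Egr4, both lower in EGFP+ cells, capitals mark TGACG, the core of the cAMP response element bound by CREB-family factors, on either strand. In C1qb and Ctsc, both higher, capitals mark AGGAAGT, a core bound by ETS-family factors such as the myeloid factor PU.1, on either strand. The C1qb window also holds TGACG, which is not marked there.
Btg2 (chr1:134079156-134079405, minus strand): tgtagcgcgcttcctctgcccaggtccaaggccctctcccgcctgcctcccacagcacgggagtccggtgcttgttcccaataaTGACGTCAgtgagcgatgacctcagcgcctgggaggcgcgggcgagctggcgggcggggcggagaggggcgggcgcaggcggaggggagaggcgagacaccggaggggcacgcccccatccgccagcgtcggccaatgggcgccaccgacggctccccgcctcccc
Egr4 (chr6:85513590-85513839, minus strand): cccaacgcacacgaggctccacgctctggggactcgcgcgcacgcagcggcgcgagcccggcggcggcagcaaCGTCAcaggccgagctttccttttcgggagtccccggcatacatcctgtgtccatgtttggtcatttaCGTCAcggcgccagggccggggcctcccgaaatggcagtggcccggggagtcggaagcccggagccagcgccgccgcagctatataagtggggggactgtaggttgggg
C1qb (chr4:136886201-136886450, minus strand): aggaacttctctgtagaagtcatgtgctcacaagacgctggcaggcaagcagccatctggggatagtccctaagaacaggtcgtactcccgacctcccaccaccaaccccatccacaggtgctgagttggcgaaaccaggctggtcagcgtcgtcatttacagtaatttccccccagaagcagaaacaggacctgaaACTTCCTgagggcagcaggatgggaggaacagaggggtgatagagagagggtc
Ctsc (chr7:88277835-88278084, plus strand): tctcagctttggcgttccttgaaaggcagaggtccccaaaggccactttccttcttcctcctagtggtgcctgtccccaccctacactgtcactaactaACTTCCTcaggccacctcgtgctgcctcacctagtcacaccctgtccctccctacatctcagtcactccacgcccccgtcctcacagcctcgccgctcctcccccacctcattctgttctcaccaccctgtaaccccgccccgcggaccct

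Both cores were picked from 5 patterns after these sequences had been searched, so their counts are a description only. TGACG was in 15 of 24 matched immediate early promoters, 2 of 18 matched microglial ones and 17.9% of all 27025 promoters. AGGAAGT was in 4 of 18 microglial promoters, 1 of 24 immediate early ones and 7.80% of all. Ctsc is on the list of activated microglia and lysosomes, so it is not among those 4. The full palindrome TGACGTCA, as in Btg2, was in 3 of 24 immediate early promoters, 0 of 18 microglial ones and 1.62% of all. GAGGAAGT was in 1 of 18 microglial promoters, 0 of 24 immediate early ones and 2.44% of all, and the CArG box was in none of either list and 1.40% of all. A match in these windows is no evidence that a factor binds there.

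C1qb, which encodes a chain of complement C1q (chromosome 4, 136880129 to 136886187), stood at 12.63, 12.65, 10.24, 2.21 and 13.49 in cells 1 to 5. The EGFP- cells ran from 0 to 13.15 with a median of 0.16. The mean was 10.24 ± 4.65 (SD over 5 cells) in EGFP+ and 4.08 ± 5.28 (SD over 27 cells) in EGFP- cells, a difference of 6.17, which was 1.29 on summed counts. Cell 5 lay above every EGFP- cell, and cell 4 was far below the other EGFP+ cells. Its neighbours C1qa and C1qc differed by 4.69 and 4.77. Fcgr3, an Fc receptor, stood at 7.47, 8.64 and 9.75 in cells 2, 3 and 5, higher still in cell 1 and at 0.79 in cell 4, and had a count in only 6 of 27 EGFP- cells. Trem2, a lipid-sensing microglial receptor, stood at 9.88, 10.13, 9.61 and 9.50 in cells 1, 2, 3 and 5 and had no count in cell 4. Cells 1, 2, 3 and 5 were thus high for these genes and cell 4 was low.

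Ctsc, which encodes the lysosomal protease cathepsin C (chromosome 7, 88278085 to 88310888), had the largest positive difference among the named genes, 6.29, which was 1.79 on summed counts. It stood at 9.09, 10.42, 8.22, 0.79 and 10.78, and 22 of 27 EGFP- cells had no count. The value in cell 4 stands for 0.725 CPM. Of 20 measured genes of activated microglia and lysosomes, 19 were higher (all genes: 38.6%), with a median of 3.82 that was 0.84 on summed counts. The chemokine genes Ccl3, Ccl4 and Ccl6 differed by 5.33, 5.37 and 5.68. For Ccl3, 5 EGFP- cells lay above every EGFP+ cell, and on summed counts its sign turned (-0.09). Sparc, a matricellular protein, Trf, transferrin, Rgs10, a G-protein regulator, and Selenop, a selenium carrier, differed by 5.48, 5.38, 5.14 and 4.73, with the same low cell 4, and Sparc by 0.55 on summed counts. Trf and Selenop share exon bases with other annotated genes (Gm20425 and Ccdc152).

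**Figure D1:**
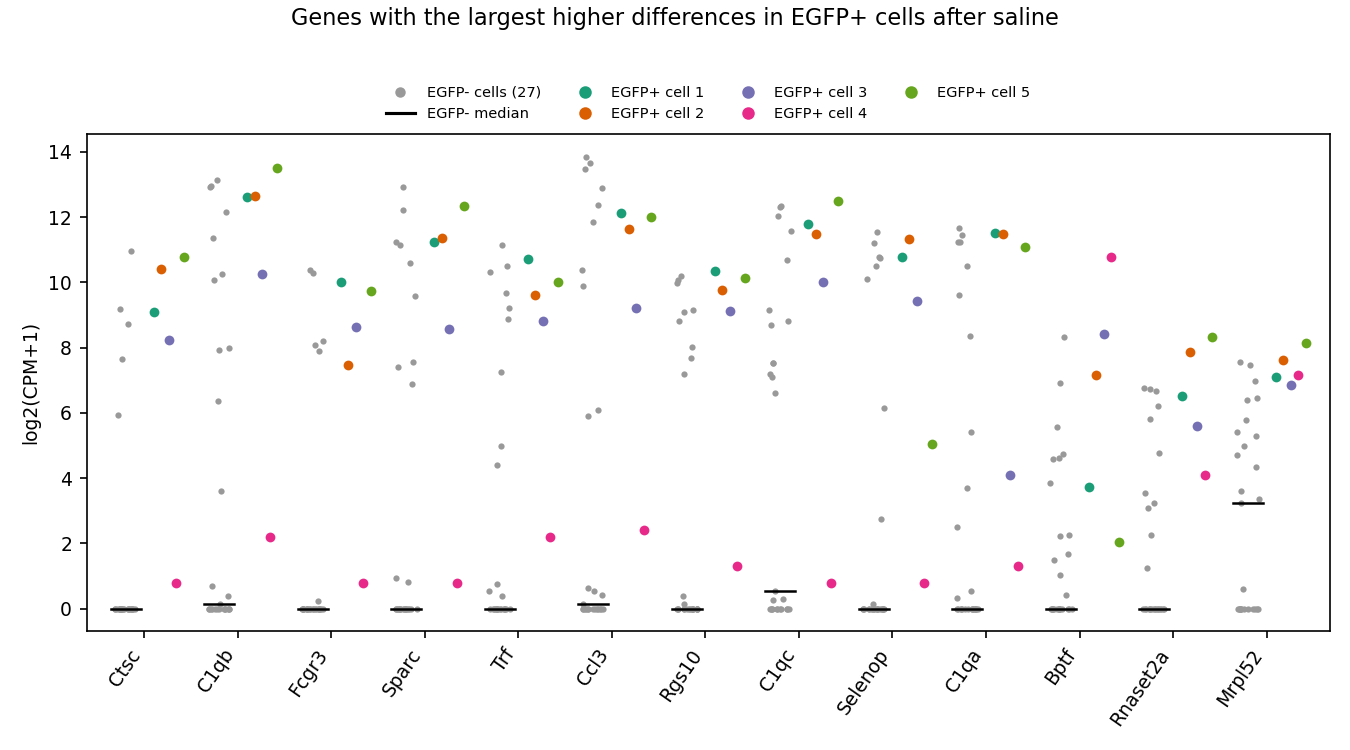
Levels, as log2(CPM+1), of 13 of the 14 genes with the largest positive differences: grey points are the 27 EGFP- cells, black bars their median, and coloured points EGFP+ cells 1 to 5. Cell 4 is low for most of these genes, and for Bptf it is the highest at 10.78.

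The cells were also divided by their microglial share. The division uses the transcripts that are compared, so its microglial values are a description only. With only cells of at least 0.1% microglial counts (4 EGFP+, 12 EGFP-), the microglial list had a median of 2.34 beside -0.06 over all genes. Of its genes, 23 of 25 were higher, but the share of all genes higher in those cells was not computed. C1qb differed by 4.02. Of all 7876 genes measured in those cells, 3.68% were at least 3 higher and 4.47% at least 3 lower. In the cells below that share, which include 1 EGFP+ cell (cell 4) and 15 EGFP- cells, the list's median was 0.00, and 7.27% of 5994 genes were at least 3 higher and 37.9% at least 3 lower. The part of microglial cells in these reads was not tested. The title numbers of the kept cells run in stretches, and within the stretch of EGFP+ cells 1 and 2 the list's median was 6.11, against 2.37 within that of cells 3 to 5. The border macrophage, blood leukocyte and endothelial and mural lists had no measured gene. Among the homeostatic microglial genes, P2ry12 stood at 8.84, 3.01, 1.95, 0 and 10.58 and Tmem119 at 8.70, 5.67, 0, 0.79 and 2.86.

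Genes of antigen presentation were also higher, though not each in the same cells. All 12 measured genes were higher (all genes: 38.6%), with a median of 1.35 that was 0.25 on summed counts. In cells of at least 0.1% microglial counts the median was 0.57 beside -0.06 over all genes. H2-Aa, a chain of MHC class II (chromosome 17, 34282744 to 34287823), stood at 6.46 in cell 1, 7.96 in cell 3 and 9.38 in cell 5, with no count in cells 2 and 4. Only 1 of 27 EGFP- cells had a count of it, at 0.86, which is below each of those 3 cells. Its partner H2-Ab1 was counted in cells 1 and 3, at 6.74 and 5.70, against an EGFP- highest of 4.71. Cd74, the class II invariant chain, stood at 7.01, 0, 0.73, 0 and 10.60, and 3 EGFP- cells had a count. B2m, the light chain of MHC class I, stood at 10.19, 11.55, 9.29, 2.21 and 11.42, a difference of 4.67. H2-D1 stood at 9.19, 9.92, 0, 0 and 11.50, a difference of 2.78 that was -0.77 on summed counts. Of 11 measured interferon-response and nucleic acid sensing genes, 10 were higher (all genes: 38.6%), with a median of 1.34. It was -0.29 in cells labelled as passed and -0.59 within the title stretch of cells 3 to 5. Irf9, an interferon signalling factor that shares exon bases with Rnf31, was also high in cell 4, at 8.11.

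Some leading genes did not follow the microglial share. Mrpl52, a protein of the mitochondrial ribosome (chromosome 14, 54426909 to 54429756), stood at 7.10, 7.62, 6.85, 7.15 and 8.13 in cells 1 to 5, the narrowest spread of the 14 genes. The EGFP- cells ran from 0 to 7.56 with a median of 3.23, and 24 of 27 lay below the lowest EGFP+ cell. The difference was 4.55 (2.39 on summed counts), and it was 4.51 and 4.41 in cells at or above and below 0.1% microglial counts. Bptf, a subunit of a chromatin remodeller, stood at 3.73, 7.17, 8.43, 10.78 and 2.05, with an EGFP- median of 0 and a difference of 4.67. Rnaset2a, a ribonuclease, differed by 4.62, but it has a near-identical copy, Rnaset2b, and its reads are uncertain. Unlike Mrpl52 and Bptf, it stood in the same order of cells as the microglial share, at 6.52, 7.88, 5.58, 4.08 and 8.32 in cells 1 to 5. The EGFP- mean of Rnaset2a was 3.53 at or above 0.1% microglial counts and 0.52 below.

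Immediate early genes were lower as a group. Of 29 measured, 25 were lower (all genes: 61.4%) and 11 at least 3 lower (all genes: 5.14%), and the median difference was -2.23. It was -1.42 within the title stretch of cells 1 and 2 and -2.14 within that of cells 3 to 5. The mean level over the list was 3.48, 3.21, 3.89, 3.64 and 1.54 in cells 1 to 5, each below the EGFP- median of 6.18, while EGFP- cells ran from 0.75 to 8.38. After thinning, 14, 14, 17, 21 and 7 of the 29 genes were counted in cells 1 to 5, against a median of 23 in EGFP- cells. A single ribosomal RNA row of the counts took 4.43%, 2.50%, 1.57%, 13.4% and 5.83% of the counts of cells 1 to 5. In EGFP- cells it took 0.101% to 8.97%, with a median of 1.70%. Cell 4 was above every EGFP- cell, and the part of this share in the result was not tested.

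**Figure D2:**
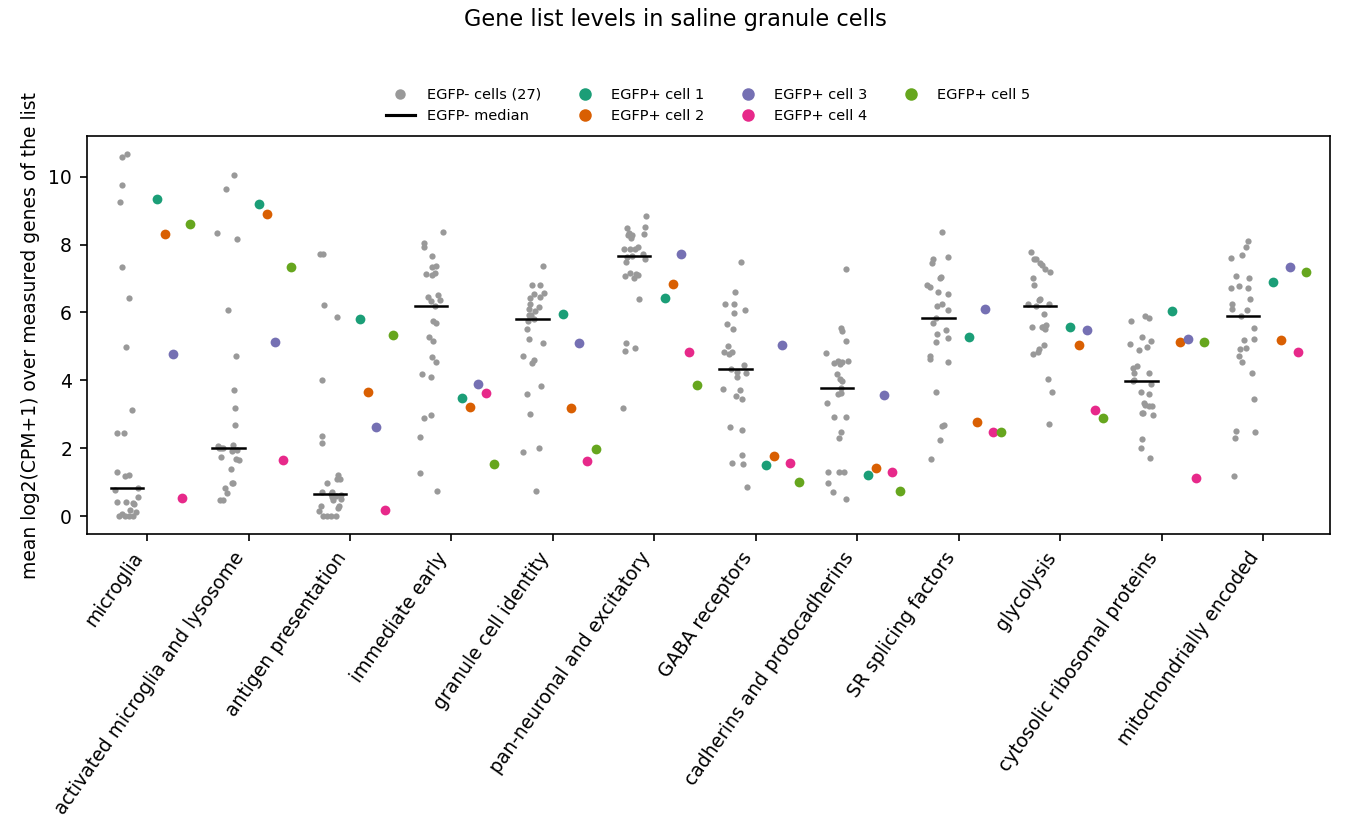
Mean log2(CPM+1) over the measured genes of 12 gene lists in each saline cell: grey points are EGFP- cells, black bars their median and coloured points EGFP+ cells 1 to 5. The EGFP+ cells lie between 1.54 and 3.89 on the immediate early list, below the EGFP- median of 6.18.

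Arc, which encodes a synaptic capsid-forming protein induced by activity (chromosome 15, 74669083 to 74672570), had no count in cells 1, 2, 3 and 5 and stood at 3.38 in cell 4. The EGFP- cells ran from 0 to 12.05 with a median of 8.65, and 24 of 27 had a count. The means were 0.68 ± 1.51 (SD over 5 cells) and 6.99 ± 4.27 (SD over 27 cells), a difference of -6.32. The summed counts gave 0.813 CPM (exact 95% Poisson interval 0.433 to 1.39) in EGFP+ and 1044 CPM (1038 to 1050) in EGFP- cells. These intervals cover the counting of reads only, and without molecular barcodes several reads can come from 1 molecule. The EGFP+ interval rests on the reads of cell 4 alone. The classes still overlapped, as 19 of 27 EGFP- cells lay above cell 4 and the other 8 did not.

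Btg2, an anti-proliferative gene induced by activity (chromosome 1, 134075170 to 134079120), stood at 0, 2.71, 4.68, 1.67 and 0, with an EGFP- median of 8.90. Egr4, a zinc-finger transcription factor, stood at 6.89, 7.77, 8.08, 3.28 and 0, and 24 of 27 EGFP- cells lay above the highest of them. Bdnf, a neurotrophin that shares exon bases with Gm45346, stood at 0.99, 0, 8.29, 2.21 and 0, with an EGFP- median of 7.88. Npas4, an activity-induced transcription factor, had no count in any EGFP+ cell and a count in 12 of 27 EGFP- cells. Its summed level was at least 562-fold lower than the 105.5 CPM of EGFP- cells, taking 3 counts over the 5 cells as the floor. That floor covers the counting of reads only, in libraries without molecular barcodes. It does not cover the spread between cells, so the fold is no bound on a class difference. Btg2 and Arc were picked as leading genes because all 5 cells lay below the EGFP- median. Bdnf, which was not picked by that rule, lay above it in cell 3.

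Some immediate early genes differed less. Fos, a subunit of the AP-1 transcription factor, stood at 7.38, 9.75, 6.11, 7.67 and 10.17, with an EGFP- median of 10.97 and a difference of -1.59, and all 5 cells lay below that median. In cell 4, Egr1, Junb, Nr4a3 and Homer1 stood at 12.88, 12.19, 11.41 and 11.86, and Nr4a3 and Homer1 there lay above the highest EGFP- cell (9.68 and 11.10). In cell 5, Egr1 and Junb had no count while Dusp1, a MAP kinase phosphatase, stood at 10.18. The 5 cells therefore held different immediate early genes.

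Immediate early levels were also compared among cells with microglial transcripts, a set that keeps 4 of the same 5 EGFP+ cells. With only cells of at least 0.1% microglial counts, the immediate early list had a median of -1.59 beside -0.06 over all genes. Of its genes, 24 of 29 were lower, but the share of all genes lower in those cells was not computed. Arc, picked because all 5 EGFP+ cells lay below the EGFP- median, had no count in those 4 and differed by -5.78 there. It differed by -4.58 in the cells below that share, where cell 4 is the 1 EGFP+ cell. The pan-neuronal list had a median of -1.21 in all cells and 0.06 in the cells at or above 0.1%. Among the 27 EGFP- cells, the microglial and immediate early levels had a correlation of -0.217, as a description over cells of unknown mice. The median immediate early level of EGFP- cells was 4.93 at or above 0.1% microglial counts and 7.11 below. It was thus also lower in EGFP- cells with microglial transcripts, and the part of this in the class difference was not tested.

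**Figure D3:**
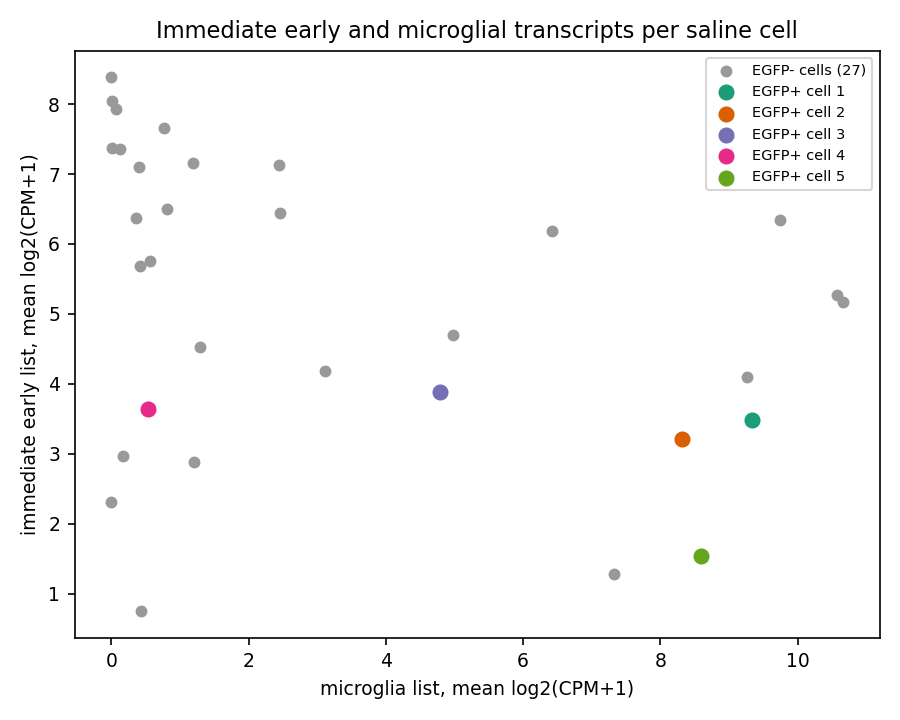
Mean log2(CPM+1) of the immediate early list (vertical) against that of the microglia list (horizontal) in each saline cell, with EGFP- cells in grey and EGFP+ cells 1 to 5 in colour. EGFP+ cells lie at or below 3.89 on the vertical axis, and their microglial level runs from 0.54 (cell 4) to 9.33 (cell 1).

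Pgrmc1, a haem-binding membrane protein (chromosome X, 36598206 to 36606079), stood at 2.30, 0, 0, 0 and 0.83, and 23 of 27 EGFP- cells lay above all of these. Its difference of -6.85 was the largest among the named genes. Srsf7, a serine and arginine rich splicing factor, stood at 0, 0, 7.61, 3.17 and 0, with an EGFP- median of 9.74. Of 17 measured splicing factors of this group, 16 were lower (all genes: 61.4%), with a median of -1.15 beside -0.46 over all genes. Ptk2b, a calcium-activated tyrosine kinase, stood at 8.65, 5.41, 0.53, 1.29 and 0, a difference of -6.23. Rgs4, an inhibitor of G-protein signalling, stood at 1.31, 1.85, 0, 1.29 and 0, with an EGFP- median of 9.30. Only 20 of 27 EGFP- cells had a count of Rgs4, so its low level was shared by some unlabelled cells.

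Dync1li1, a light intermediate chain of the dynein motor, and Dtna, a component of the dystrophin complex that shares exon bases with Gm47898, had no count in any EGFP+ cell. They were counted in 23 and 22 of 27 EGFP- cells. The summed level was at least 803-fold lower for Dync1li1 and 1164-fold lower for Dtna, with the same floor. These folds cover the counting of reads only and not the spread between cells, as some EGFP- cells also had no count. Nrn1, a neurite growth factor anchored to the membrane, stood at 0, 1.22, 2.42 and 0 in cells 2 to 5 and at 63 CPM in cell 1, with an EGFP- median of 8.42 on the log2 scale. Cebpb, a transcription factor, was counted in cell 1 alone, at 3.52, and in 23 of 27 EGFP- cells. Nrn1 and Cebpb share exon bases with Fars2 and Tmem189. Sdcbp, Ppp1r13b, Ube2ql1 and Gorasp2 differed by -5.75, -5.70, -5.07 and -5.05.

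**Figure D4:**
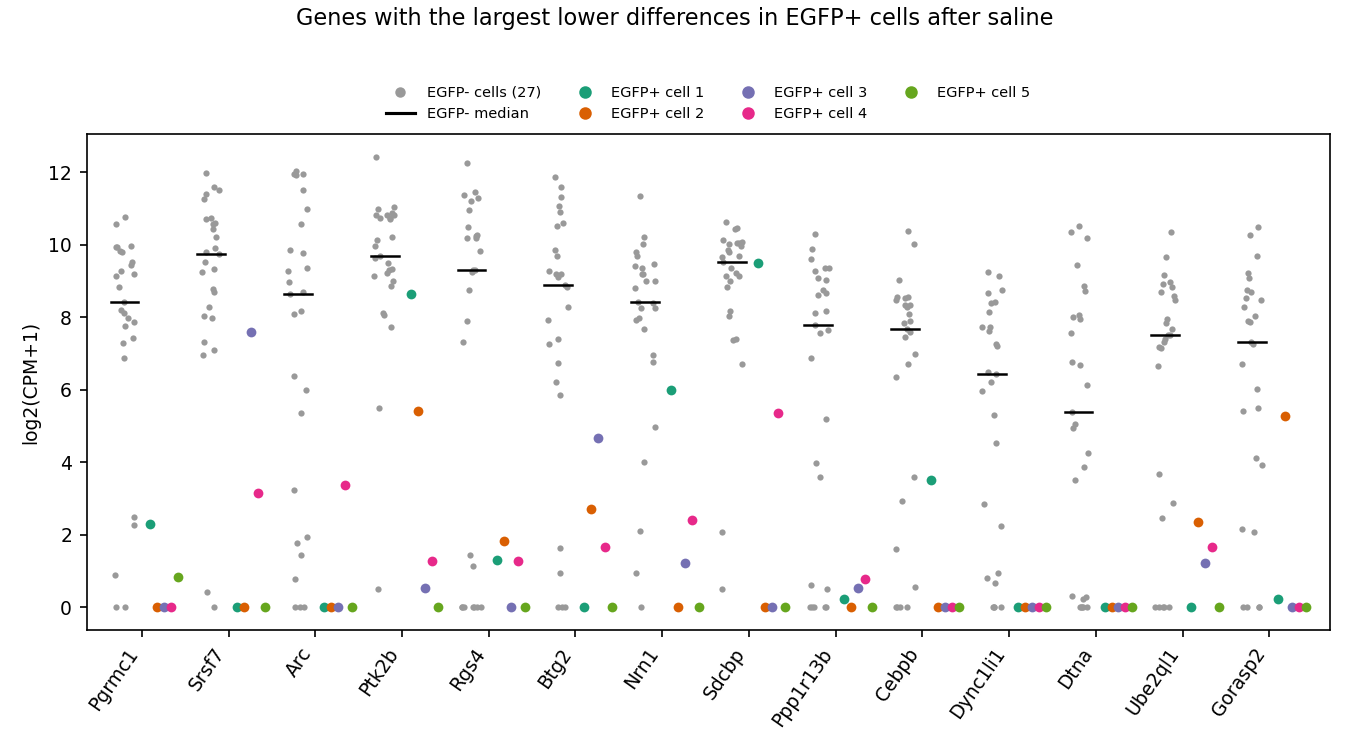
Levels, as log2(CPM+1), of the 14 genes with the largest negative differences: grey points are the 27 EGFP- cells, black bars their median, and coloured points EGFP+ cells 1 to 5. For each gene some EGFP- cells lie at or below the highest EGFP+ cell, and Dync1li1 and Dtna are at 0 in all 5.

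Most measured neuronal identity and receptor genes were lower, where 61.4% of all genes were. Of 14 granule cell identity genes, 12 were lower, with a median of -1.95 in all cells and -0.72 in cells of at least 0.1% microglial counts. It was -0.29 within the title stretch of cells 1 and 2, -2.45 within that of cells 3 to 5 and -0.53 on summed counts. The list level was 5.94, 3.18, 5.11, 1.64 and 1.98 in cells 1 to 5, with an EGFP- median of 5.80. All 11 measured GABA receptor genes were lower, with a median of -1.84. Gabra4, a subunit of the GABA-A receptor that shares exon bases with a neighbouring gene, stood at 1.10, 0, 8.28, 0 and 0.83, with an EGFP- median of 6.15. Cell 3 was high for Gabra4 and for the list as a whole, and without it the list's median was lower still, at -2.92. All 12 measured cadherin genes were lower, with a median of -1.81, and Cdh9 differed by -4.03. Of 19 glycolysis genes, 17 were lower, with a median of -1.58 in all cells, -0.50 on summed counts and -0.42 in cells of at least 0.1% microglial counts.

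Genes that steer axons bear on the question of the labelling, which separates granule cells by where an axon goes. Of 26 measured guidance genes, 20 were lower (all genes: 61.4%), with a median of -0.97. In cells of at least 0.1% microglial counts 12 were higher and 14 lower, with a median of -0.32 beside -0.06 over all genes. The largest differences were those of the receptors Epha7 (-4.81) and Epha4 (-3.51), the adhesion molecule Nrcam (-3.66) and the ligand Slit3 (-2.92). Robo3, a receptor required for commissural axons to cross the midline, stood at 0.41, 1.31, 0, 0.79 and 5.27, with a count in 8 of 27 EGFP- cells and a difference of 0.42. That difference was -0.51 without cell 5 and -3.63 on summed counts. Nrp1, a semaphorin receptor, differed by -0.31, and Pcdh11x, a protocadherin, by -1.03. Robo1, a Slit receptor, was below the filter for measured genes, with counts in 2 cells of each class. Gap43, a growth cone protein, was counted in cell 4 alone, at 2.21, and in 12 of 27 EGFP- cells. Of 25 growth and cytoskeleton genes, 19 were lower (all genes: 61.4%), with a median of -1.35 in all cells and 0.09 in cells of at least 0.1% microglial counts.

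The same EGFP contrast after KA, over 27 EGFP+ and 36 EGFP- cells, shares no cell with the saline contrast. There, 5 of 9308 measured genes (0.0537%) were at least 3 higher and 1 (0.0107%) at least 3 lower, in far more cells. The KA cells come from 2 title series, of which the second also holds every saline cell, and several values differ in sign between them. The first series has 24 EGFP+ and 21 EGFP- KA cells. The second has only 3 EGFP+ and 15 EGFP- KA cells, so each of its values rests on 3 EGFP+ cells. Over all KA cells the 18 measured microglial genes were all higher (all genes: 65.1%), with a median of 1.49 beside 0.29 over all genes. Taken separately, the first series gave a median of 2.29 and the second one of -1.78, and C1qb differed by 4.59 and -3.65. Immediate early genes had a median of 0.68 over all KA cells, -0.43 in the first series and 2.38 in the second. Arc differed by -0.14 over all, -2.25 in the first and 3.84 in the second. Mrpl52 differed by -1.38 after KA, opposite in sign to saline. Robo3 differed by 2.64 after KA and 0.42 after saline. Across 6997 genes the differences after saline and KA had a correlation of 0.024, with 0.161 for the first KA series and -0.093 for the second, and genes are not independent replicates. The difference between treatments was not tested.

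**Figure D5:**
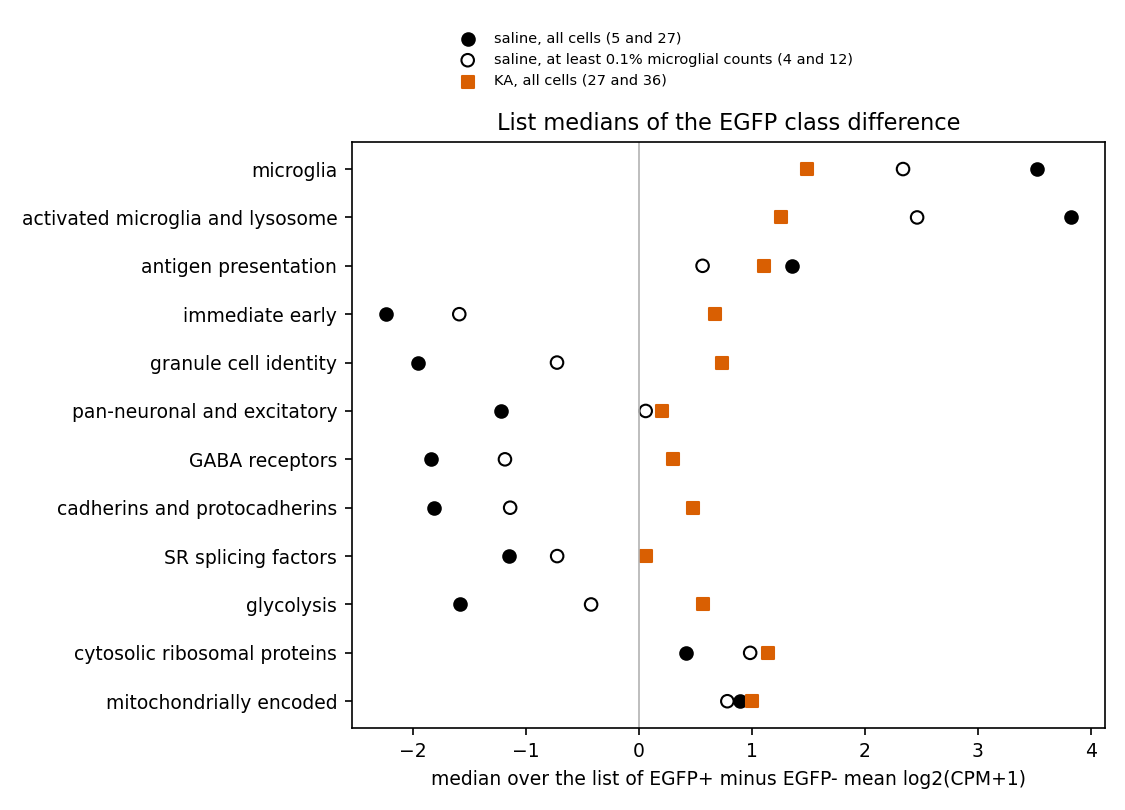
Median over each list of the EGFP+ minus EGFP- difference in mean log2(CPM+1): filled circles are all saline cells, open circles saline cells with at least 0.1% microglial counts, and squares KA cells. The immediate early list is at -2.23, -1.59 and 0.68 in these 3 sets, and the microglia list at 3.53, 2.34 and 1.49. The squares pool 2 title series whose medians have opposite signs, -0.43 and 2.38 for immediate early genes and 2.29 and -1.78 for microglia. The first series has 24 EGFP+ cells and the second only 3.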

How the data were processed

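RNA of single patched granule cells was made into libraries with Nextera XT, without molecular barcodes or strand, per the labels' protocols. Trimmomatic, STAR, featureCounts, kallisto and build GRCm38 are named in the submitters' processing notes, without versions or roles. The authors deposited whole-number read counts per gene symbol before and after quality control, and a normalized signal, which is the count times 1 factor per cell. Of 22870 gene rows and 92 spike-in rows, the spike-ins were left out.

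Pass labels and the table of kept cells disagree, and the labels may be displaced by 1 title, which was not resolved. So the table decided which cells were used and the labels gave the class. CPM, mean log2(CPM+1) per class, exact 95% Poisson intervals and thinning to 1000000 counts were computed with Python 3.11.15, numpy 2.4.6, pandas 2.3.3 and scipy 1.17.1, and TMM factors with edgeR 4.0.16, for scaling only. The script that computes the differences was checked on simulated data. Coordinates and exon overlaps come from GENCODE (GRCm38) and promoters from RefSeq.

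The members and the 37 gene lists were chosen with earlier results of these data known. Named genes are the 14 with the largest difference in each direction among those with all 5 EGFP+ cells on that side of the EGFP- median, leaving out pseudogenes and Gm or Rik rows, the 2 to 4 largest of each list, and preset single genes. Genes such as Snap25, Slc17a7, H2-Ab1, P2ry12, Tmem119, Npas4, Egr1, Junb, Nr4a3, Homer1 and Dusp1 were named after their values were seen. A few named genes are not reported here. With 1 sample per class, no p-value was computed. Alternatives changed scaling, filter, pseudocount, cells and threshold.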

Additional observations from a re-analysis of the deposited data

Results flagged for a closer look

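In groups of 5 EGFP+ cells, 24 of 85 sets of values (23 of them given below) had 1 cell far from the others by Dixon's criterion (gap over range above 0.71), where chance alone flags about 1 in 20 groups. Sets in which most cells have no count are flagged readily.

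Cell 4 was the lone low cell for Ctsc (0.79), C1qb (2.21), Fcgr3 (0.79), Trf (2.21), Rgs10 (1.29) and C1qc (0.79), and for the mean level of the ribosomal protein list (1.12). Cell 5 was the lone low cell for the immediate early list (1.54) and Calb1 (0).

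Cell 3 was the lone high cell for the GABA receptor list (5.03), the cadherin list (3.56), Bdnf (8.29) and Pcdh11x (2.60). Cell 1 was the lone high cell for Prox1 (8.85), Cebpb (3.52) and the oligodendrocyte precursor list (3.59), which has 2 measured genes. Cell 4 was the lone high cell for Arc (3.38), Gap43 (2.21) and Penk (3.95), cell 5 for Robo3 (5.27), Robo1 (3.92) and Cartpt (1.74), and cell 2 for Gorasp2 (5.28). The cause of these lone values was not tested.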

How the results depend on the processing

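No paired analysis was possible because the labels tie no EGFP+ cell to an EGFP- cell. The 28 leading genes kept their sign in all settings run except summed counts (27 of 28, with Ccl3 at -0.087) and cells below 0.1% microglial counts (26 of 28, with Sparc at -0.24 and C1qc at -0.71), where cell 4 is the 1 EGFP+ cell. Of these 28, a size of at least 3 was kept by 13 on summed counts and 17 below 0.1%. The 28 were picked from these same cells, with all 5 EGFP+ cells on 1 side of the EGFP- median. Their kept signs were therefore largely fixed by that choice and are a description only. The numbers of genes at least 3 higher and lower (161 and 396) moved far more. They were 31 and 37 with a pseudocount of 10 CPM, 448 and 886 on the authors' signal, and 462 and 1185 with the median over cells. Within the title stretch of EGFP+ cells 1 and 2 they were 986 and 1053. They were 436 and 2273 below 0.1% microglial counts, 483 and 1404 at a threshold of 2 and 60 and 100 at a threshold of 4. The lower count alone moved to 2.1e+02 with a filter of 3, 1463 on summed counts, 958 in cells labelled as passed, 94 with all cells before quality control and 878 within the title stretch of EGFP+ cells 3 to 5, and the higher count to 290 at or above 0.1% microglial counts. Leaving out 1 EGFP+ cell gave 143 to 370 higher (2.5e+02 without cell 3, 370 without cell 4) and 367 to 752 lower (752 without cell 1, 630 without cell 3). The median over all genes ran from -0.85 to -0.04 in these, and was -2.52 below 0.1% microglial counts.

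List medians are given here minus that over all genes. With the median over cells, immediate early genes were at -3.45, microglia at 8.96, interferon genes at 0.00 and astrocyte genes at -0.51. On summed counts, activated microglia were at 1.09, astrocyte genes at -4.04, oligodendrocyte precursors at -2.41, axon guidance at -1.78, cadherins at -2.69 and potassium channels at -1.66, and the CA pyramidal list, 1 gene, reversed to -1.78. Astrocyte genes were at -0.84 with a pseudocount of 10, -0.55 in cells labelled as passed, -0.77 before quality control and -0.69 within the stretch of cells 3 to 5, where interferon genes were at 0.16 and sodium and calcium channels at 0.99. Within the stretch of cells 1 and 2, oligodendrocyte precursors were at 1.78 and sodium and calcium channels at -1.76. Below 0.1% microglial counts, astrocyte genes reversed to 0.74, and oligodendrocyte precursors were at 1.83, CA pyramidal at 5.63, axon guidance at 0.83 and potassium channels at 0.68. Leaving out 1 EGFP+ cell moved astrocyte genes between -1.96 and -0.70, while the immediate early list ran from -2.64 to -1.63 and the microglia list from 3.69 to 5.15. For the other changes the cause was not tested. Cells 4 and 5 were shallower than every EGFP- cell, which limits their low values.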

Other observations

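Of 81 measured cytosolic ribosomal protein genes, 58 were higher (all genes: 38.6%), with a median of 0.42. It was -0.11 in cells labelled as passed and -0.05 within the title stretch of cells 3 to 5. Rps28, a protein of the small subunit that shares exon bases with Kank3, stood at 6.24, 4.58, 5.64, 6.08 and 6.86, and 19 of 27 EGFP- cells lay below the lowest of these. Rpl5, of the large subunit, stood at 0.73, 0.45, 0.91, 0.79 and 0, and 20 of 27 EGFP- cells lay above all of them. Of 10 mitochondrially encoded genes, 8 were higher (all genes: 38.6%), with a median of 0.89, and mt-Nd1, a subunit of complex I, stood at 9.90, 8.96, 10.04, 11.80 and 11.80 against an EGFP- median of 8.48. Of 77 nuclear respiratory chain genes, 30 were higher (all genes: 38.6%), with a median of -0.48 beside -0.46 over all genes, and Cox7a2l stood at 8.76, 9.47, 7.65, 6.61 and 10.44, a difference of 3.77.

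Secretory and synaptic genes differed from one to the next. Vgf, a secreted neuropeptide precursor, had no count in any EGFP+ cell and was counted in 19 of 27 EGFP- cells. Its summed level was at least 649-fold lower against a floor of 3 counts, which covers the counting of reads only and not the spread between cells. Chgb, a granin, stood at 6.40, 10.95, 4.25, 1.29 and 10.47, a difference of 2.40. Syngr1, a synaptic vesicle protein, stood at 9.06, 10.28, 6.98, 0.79 and 10.64, a difference of 3.96. The median was -0.88 over 14 neuropeptide genes, -0.66 over 25 synaptic vesicle genes, -1.10 over 21 synaptic adhesion genes, -1.19 over 17 glutamate receptor genes, -1.17 over 20 potassium and HCN channel genes and -0.80 over 20 sodium and calcium channel genes. It was -1.45 over 22 calcium and G-protein genes, -0.27 over 20 axonal transport genes and -0.72 over 27 chaperone genes.

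Few marker genes of other cells were measured. The 6 measured astrocyte genes were all lower (all genes: 61.4%), with a median of -1.90. The 3 oligodendrocyte genes had a median of -0.47, the 2 oligodendrocyte precursor genes -0.27, the 3 interneuron genes -1.02, the 2 mossy cell genes 1.40, the 1 CA pyramidal gene 0.76 and the 2 genes of immature neurons -2.67. The 3 AAV entry factor genes had a median of 0.26. In mean level, cell 5 stood at 6.05 on the mossy cell list, cell 3 at 7.91 on the interneuron list and cell 1 at 6.59 on the oligodendrocyte list. The highest EGFP- cells there stood at 4.60, 6.61 and 5.20. On the other lists of this paragraph some EGFP- cells lay above every EGFP+ cell. Whether these levels reflect another cell type was not tested.

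The 2 labelled saline EGFP+ cells outside the kept table had 89195 and 189424 counts. The first had no microglial count, and in the second 5.79% of counts were microglial, over 22 genes. Neither had a count of Arc, but the median Arc level of the 14 left-out EGFP- cells was also 0, with a highest of 12.19. Among 14 left-out EGFP- cells the highest microglial share was 7.08%.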
